A study of Mus musculus with 56 samples.

Results

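The liver makes most of the proteins that clot blood and most of the soluble proteins of complement. A set of 38 genes for such plasma proteins was examined in mouse liver, 21 of coagulation and fibrinolysis and 17 of complement. They were chosen by gene symbol from the 23813 named genes of an RNA-seq table, and the first listed transcript stood for each gene. All 38 genes had a row in the table and all passed the filter on low values in both comparisons. The table holds polyA-enriched liver RNA from 12 male mice in 3 groups of 4. Every mouse had received PTU, an inhibitor of thyroid hormone synthesis, with a low iodine diet. Hypothyroid WT mice received PTU alone, hyperthyroid WT mice (PTU_T3) were in addition injected with the thyroid hormone triiodothyronine (T3) over the last days of the diet, and L-NCORdeltaID mice received PTU alone. L-NCORdeltaID mice express, in the liver only, a form of the corepressor NCOR1 without the domains that bind the thyroid hormone receptor (TR). Their line was kept on a mixed C57BL/6;129S background. Mean ages are stated per group for the animals of the whole study and not for single libraries, and the L-NCORdeltaID mice were on average younger than either WT group. The strain of the WT mice and the promoter that restricts the mutation to the liver are not given in the sources used here. Both comparisons use the same 4 hypothyroid WT mice as controls.

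Clotting is a chain of proteases, most of which circulate as inactive precursors. Vitamin K-dependent factors and the contact phase lead to thrombin, which turns fibrinogen into fibrin, while serpins hold the proteases in check and plasmin dissolves the clot. Complement is a second protease chain, started by antibodies through C1, by sugars through mannose-binding lectins or by its own alternative pathway. All starts meet at the convertases that cleave C3 and C5, regulators limit these enzymes, and the terminal proteins assemble a pore in the target membrane. Several of these proteins, fibrinogen foremost, are acute phase proteins whose synthesis by the liver rises in inflammation.

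Values are RPKM, reads scaled to transcript length and to the aligned reads of the library, so that levels can be compared between genes. The libraries of hyperthyroid WT mice were shallower (0.681 to 0.833 times the depth of hypothyroid WT replicate 1) than the other 8 libraries (0.932 to 1.36 times). Thrsp, a classic T3 target, was at 209 to 490 RPKM in hypothyroid and 847 to 2360 RPKM in hyperthyroid WT mice. Ncor1 was at 14.1 to 15.6 RPKM in hypothyroid WT and 12.1 to 13.9 RPKM in L-NCORdeltaID mice, but a value over the whole transcript does not test the removal of single domains. Defining hepatocyte genes were abundant in every library, with albumin (Alb) at 11609 RPKM or more. The summed level of 6 hepatocyte markers was lower in hyperthyroid WT mice (22151 to 31691 RPKM) than in hypothyroid WT mice (44712 to 59784 RPKM), a sum dominated by Alb. Of the 6, Alb, Ttr and Apoa2 fell (log2 fold change -1.16, -1.55 and -1.39) and 3 were not called, Ass1 at -0.54, Apoa1 at 0.12 and Tat at 0.29. With libraries scaled by the median of gene ratios, Ttr, Apoa2 and Ass1 were called lower and Alb was not. All 9 macrophage markers tested rose with T3, and their summed level was 246 to 371 RPKM against 85.0 to 120 RPKM. An acute phase list of 15 genes summed to 5972 to 13952 RPKM in hyperthyroid WT mice and to 3440 to 3900 RPKM in hypothyroid WT mice, and 8 of its genes rose, or 4 with that scaling, under which Itih3 fell. Neutrophil markers summed to 1.57 to 16.2 RPKM against 0.159 to 0.734 RPKM, endothelial markers to 64.5 to 77.1 against 43.6 to 63.8 RPKM, and stellate cell markers to 78.3 to 88.6 against 46.2 to 65.1 RPKM. Of the markers tested, 2 of 2 neutrophil, 3 of 8 endothelial and 4 of 7 stellate cell genes were called higher. With that scaling these counts were 1, 1 and 1. The sums of cholangiocyte markers (10.4 to 19.2 against 11.96 to 16.1 RPKM) and lymphocyte markers (3.87 to 6.45 against 1.79 to 3.88 RPKM) overlapped between the groups. Of 5 cholangiocyte genes, Krt7 was called higher and Sox9 lower, and of 5 lymphocyte genes, Ptprc was called higher. With that scaling, Sox9 and Ptprc kept their calls and Krt7 did not. In bulk liver RNA, a change in cell numbers and a change in the RNA of single genes per cell cannot be told apart. The part of these shifts in the results below was not tested.

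**Figure D1:**
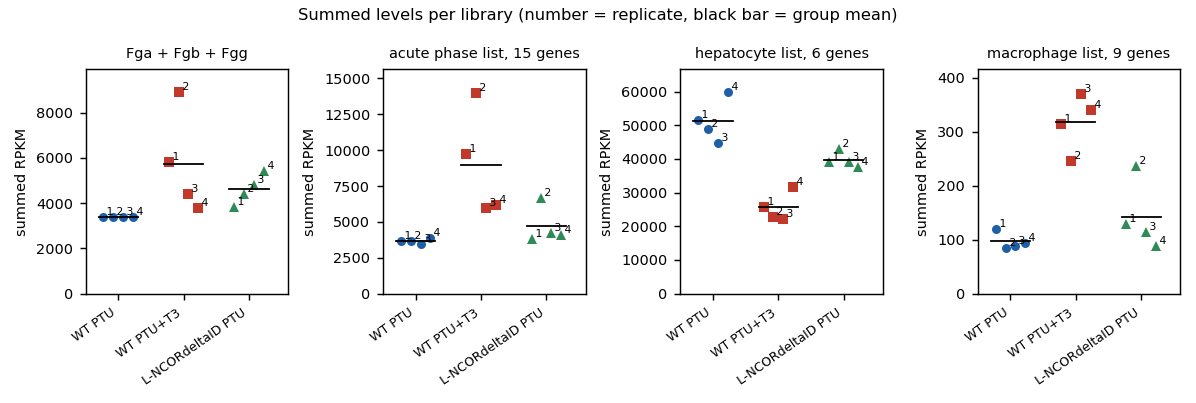
Summed RPKM per library (vertical axis, linear from 0) of the 3 fibrinogen chains, 15 acute phase genes, 6 hepatocyte markers and 9 macrophage markers in each group (horizontal axis), with numbers for replicates and black bars for group means. Hyperthyroid WT replicate 2 is the highest library for fibrinogen (8913 RPKM) and for the acute phase list (13952 RPKM), and the hepatocyte sums of hyperthyroid WT mice all lie under those of hypothyroid WT mice.

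The first comparison asked which of these genes differ between hyperthyroid and hypothyroid WT liver. Terminal complement genes showed the largest differences. The RNAs of C6, C8a and C8b fell 4.13-, 3.28- and 2.11-fold, while C4b rose 1.93-fold and was the complement gene with the largest rise. In coagulation, Cpb2 rose 1.61-fold and Proc, the gene of protein C, fell 1.71-fold. The fibrinogen chains lay 1.55- to 1.62-fold higher with a wide spread between mice and did not pass the test.

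At an adjusted p under 0.01 (limma on log2(RPKM + 0.1), adjusted over the 13941 genes tested), 3 of 21 coagulation genes (F12, Serpinf2 and Cpb2) and 3 of 17 complement genes (C2, C4b and Cfb) were called higher, where 24.5% of all genes tested were. A further 2 coagulation genes (Proc and Kng1) and 5 complement genes (Cfi, Serping1, C6, C8a and C8b) were called lower, where 7.71% of all genes tested were. Of the 17 complement genes, 3 were called with a log2 fold change below -1, against 3.47% of all genes tested. The 4 hyperthyroid mice lay wholly above or below the 4 hypothyroid mice for 14 coagulation and 11 complement genes, against 46.6% of all genes tested. The median log2 fold change was 0.20 over the coagulation genes, 0.17 over the complement genes and 0.23 over all genes tested.

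This shift of all genes bears on the higher calls. When libraries were scaled by the median of gene ratios, which brings the median of all genes to 0.01, C4b was the only one of the 38 genes still called higher (log2 fold change 0.72), and 11 genes were called lower. The calls of F12, Serpinf2, Cpb2, C2 and Cfb ended there (adjusted p = 0.0615, 0.1, 0.0468, 0.101 and 0.037), and F7, F10, F13b and Masp2 became lower calls. The same scaling moved the share of higher genes among all calls from 76.0% (3413 higher, 1075 lower) to 47.2% (1729 higher, 1932 lower). Relative to the shift of 0.23, the log2 fold changes of the 6 genes called higher were between 0.20 (F12) and 0.72 (C4b).

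**Figure D2:**
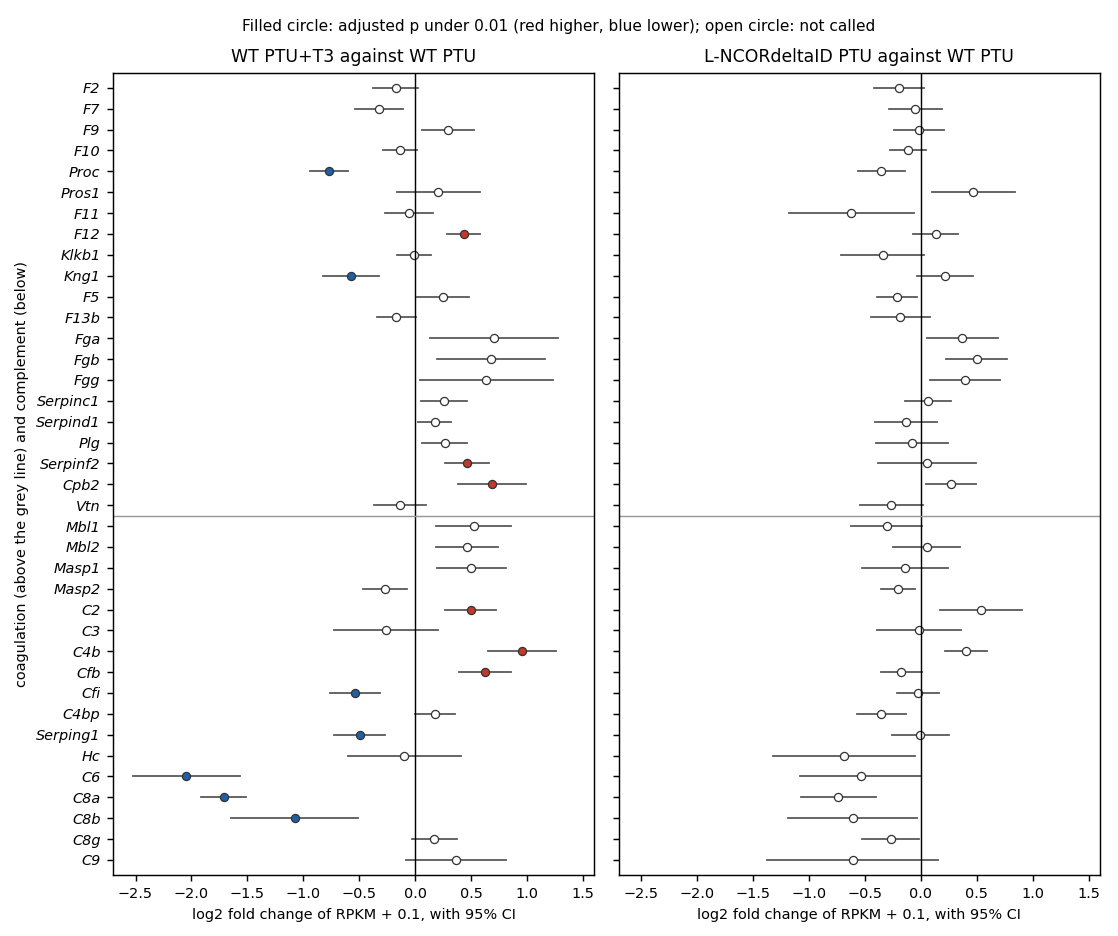
Log2 fold changes on the RPKM + 0.1 scale (horizontal axis) with 95% confidence intervals for each of the 38 genes (vertical axis), in hyperthyroid against hypothyroid WT mice on the left and in L-NCORdeltaID against WT mice, both hypothyroid, on the right. Filled circles mark an adjusted p under 0.01. C6, C8a and C8b lie furthest to the left in the T3 panel, and no circle is filled in the L-NCORdeltaID panel.

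Among the vitamin K-dependent factors, F2 (prothrombin) was the most and Pros1 (protein S, the cofactor of activated protein C) the least abundant. F2 was at 882, 828, 822 and 928 RPKM in hypothyroid WT mice and at 798, 775, 740 and 746 RPKM in hyperthyroid WT mice. Its log2 fold change was -0.18 (SE 0.09, adjusted p = 0.131), and although the groups did not overlap the difference did not pass the test. Pros1 was at 23.2, 14.7, 15.6 and 18.1 RPKM without T3 and at 23.4, 22.0, 15.8 and 20.97 RPKM with it, with groups that overlapped (log2 fold change 0.20, adjusted p = 0.325).

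Proc encodes protein C, which in its active form cleaves factors V and VIII and so brakes clotting. It was at 285, 302, 276 and 317 RPKM in hypothyroid WT mice and at 163, 172, 173 and 182 RPKM in hyperthyroid WT mice. Every hyperthyroid mouse lay far under every hypothyroid mouse. The log2 fold change was -0.77 (SE 0.07, adjusted p = 6.97e-05), and the call held in all 17 alternatives. The remaining factors of this class, F7, F9 and F10, had log2 fold changes between -0.32 and 0.29 and were not called.

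In the contact phase, 1 gene rose and 1 fell. Kng1 encodes kininogen, the cofactor of the contact system and precursor of bradykinin, and was the most abundant gene of this class. It was at 745, 632, 592 and 692 RPKM in hypothyroid WT mice and at 489, 478, 390 and 435 RPKM in hyperthyroid WT mice, with no overlap (log2 fold change -0.57, SE 0.11, adjusted p = 0.00278). The call ended without hypothyroid WT replicate 4 (adjusted p = 0.0104). Kng2 is a close relative of Kng1 that can share reads with it, and it had a log2 fold change of 0.24 (adjusted p = 0.221), so that the split of reads between these genes is uncertain.

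F12 (factor XII, the protease that starts the contact phase) rose, from 207 to 228 RPKM in hypothyroid mice to 286 to 297 RPKM in hyperthyroid mice (log2 fold change 0.43, SE 0.07, adjusted p = 0.000873). F11 (factor XI) was the least abundant gene of the class, at 33.0, 42.9, 44.2 and 38.3 RPKM without T3 and 39.2, 38.1, 38.4 and 36.0 RPKM with T3. Its groups overlapped. Klkb1, plasma prekallikrein, had a log2 fold change of -0.01 with a 95% interval from -0.16 to 0.14.

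The 3 fibrinogen chains were among the most abundant coagulation RNAs. Fgb (Bβ chain) was at 1343, 1337, 1353 and 1387 RPKM in hypothyroid WT mice and at 2395, 3260, 1758 and 1592 RPKM in hyperthyroid WT mice. Hypothyroid mice were nearly alike and every hyperthyroid mouse lay above them, but the hyperthyroid mice differed among themselves by more than 2-fold. The log2 fold change was 0.67 (SE 0.21, adjusted p = 0.0272), which did not pass the threshold.

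Among the hyperthyroid mice, Fga (Aα chain) and Fgg (γ chain) showed the same order as Fgb. Fga ranged from 889 to 943 RPKM without T3 and from 1002 to 2585 RPKM with it (log2 fold change 0.70, adjusted p = 0.0452). For Fgg the ranges were 1125 to 1143 and 1173 to 3067 RPKM (log2 fold change 0.64, adjusted p = 0.0715). Scaling libraries by the median of gene ratios gave log2 fold changes of 0.44 for Fgb, 0.46 for Fga and 0.40 for Fgg. Their adjusted p were then 0.184, 0.215 and 0.304. Summed over the chains, fibrinogen was at 3400, 3405, 3407 and 3410 RPKM in hypothyroid WT mice and at 5837, 8913, 4396 and 3767 RPKM in hyperthyroid WT mice. The hyperthyroid mouse with the highest fibrinogen, replicate 2, also had the highest sum over the acute phase list (13952 RPKM) and the highest neutrophil marker sum (16.2 RPKM). Its macrophage and endothelial marker sums (246 and 64.5 RPKM) were the lowest of the group. The chains kept close proportions: Fgb was 1.42 to 1.56 times Fga in hypothyroid and 1.26 to 1.59 times Fga in hyperthyroid WT mice.

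The fibrinogen genes are neighbours on mouse chromosome 3, in the order Fgg, Fga and Fgb, with starts 18294 bp (Fgg to Fga) and 23650 bp (Fga to Fgb) apart. Their promoters are shown because these 3 genes moved together between mice. Both strands of the 250 bases before the start were searched for 4 short motifs, with the promoters taken from RefSeq (GRCm38.p6), where 29 of the 38 genes had an entry. They are GTTAAT (the half-site of the hepatocyte factor HNF1), TTGCNNAA (C/EBP), CTGGGAA (the acute phase element bound by STAT3) and AGGTCA (the half-site of nuclear receptors such as TR). The motifs were chosen after the expression values had been seen, and matches are printed in capitals, in the reverse complement where they lie on the other strand. No 2 matches overlapped in the promoters shown.
Fgg, chr3:83007474-83007723, plus strand: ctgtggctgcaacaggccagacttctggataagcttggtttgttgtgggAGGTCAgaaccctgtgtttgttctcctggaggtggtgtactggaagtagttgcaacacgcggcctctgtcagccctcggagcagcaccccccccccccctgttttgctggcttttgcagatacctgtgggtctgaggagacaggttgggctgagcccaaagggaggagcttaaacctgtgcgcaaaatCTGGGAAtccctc
Fga, chr3:83025903-83026152, plus strand: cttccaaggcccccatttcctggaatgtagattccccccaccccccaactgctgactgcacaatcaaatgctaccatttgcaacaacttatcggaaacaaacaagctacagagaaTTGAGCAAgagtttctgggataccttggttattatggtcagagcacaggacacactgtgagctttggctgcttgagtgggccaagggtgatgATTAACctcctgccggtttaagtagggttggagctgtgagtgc
Fgb, chr3:83049864-83050113, minus strand: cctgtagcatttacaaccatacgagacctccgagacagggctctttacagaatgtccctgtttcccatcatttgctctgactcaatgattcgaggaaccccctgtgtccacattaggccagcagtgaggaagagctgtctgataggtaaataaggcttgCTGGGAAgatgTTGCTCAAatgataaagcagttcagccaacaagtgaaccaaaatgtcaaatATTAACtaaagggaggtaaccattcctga
The promoters of Fga and Fgb both held an HNF1 half-site and a C/EBP match, and those of Fgb and Fgg held CTGGGAA. Over all 27025 promoters of the same length, 6.52% held GTTAAT, 9.55% TTGCNNAA, 9.08% CTGGGAA and 13.8% AGGTCA. Among the 18 coagulation genes with an entry, 4, 5, 3 and 6 held these motifs. A match describes letters in the window and does not show that a factor binds there.

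Of the other genes of fibrin formation, F5 (factor V, cofactor in the activation of prothrombin) was the least abundant of its class in hypothyroid WT mice, at 122, 104, 99.8 and 101 RPKM in hypothyroid and 129, 129, 142 and 108 RPKM in hyperthyroid WT mice. Its groups overlapped (log2 fold change 0.25, adjusted p = 0.0685). F13b, the carrier subunit of the factor that crosslinks fibrin, had a log2 fold change of -0.17 (adjusted p = 0.0921).

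Serpinc1 (antithrombin) and Serpind1 (heparin cofactor II) both inhibit thrombin. Serpinc1 was at 825, 866, 826 and 857 RPKM without T3 and at 1077, 991, 954 and 1012 RPKM with T3. Serpind1 was at 222, 229, 224 and 236 RPKM and at 269, 254, 249 and 258 RPKM. For both genes every hyperthyroid mouse lay above every hypothyroid mouse, by log2 fold changes of 0.26 (adjusted p = 0.0395) and 0.17 (adjusted p = 0.051), which did not pass the threshold and are close to the shift of all genes.

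In fibrinolysis, the 2 genes called higher, Cpb2 and Serpinf2, encode proteins that restrain it. With libraries scaled by the median of gene ratios, neither was called (adjusted p = 0.0468 and 0.1). Cpb2 encodes the carboxypeptidase TAFI, which trims the plasmin binding sites of fibrin, and was the least abundant gene of its class. It was at 156, 173, 179 and 167 RPKM in hypothyroid WT mice and at 326, 283, 205 and 286 RPKM in hyperthyroid WT mice, with hyperthyroid replicate 3 the lowest of its group but still above all hypothyroid mice (log2 fold change 0.69, SE 0.13, adjusted p = 0.00282). Serpinf2 encodes α2-antiplasmin, the direct inhibitor of plasmin. It was at 214, 236, 245 and 260 RPKM without T3 and at 325, 359, 315 and 315 RPKM with T3 (log2 fold change 0.46, SE 0.09, adjusted p = 0.00234). The groups did not overlap, but with all 12 libraries in 1 fit Serpinf2 was not called (adjusted p = 0.0423). Plg, the precursor of plasmin itself, had a log2 fold change of 0.26 (adjusted p = 0.0348). Vtn (vitronectin, which stabilises the plasminogen activator inhibitor) was the most abundant gene of the class, at 975, 1048, 1009 and 1071 RPKM in hypothyroid and 903, 1060, 887 and 890 RPKM in hyperthyroid WT mice. Its groups overlapped.

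**Figure D3:**
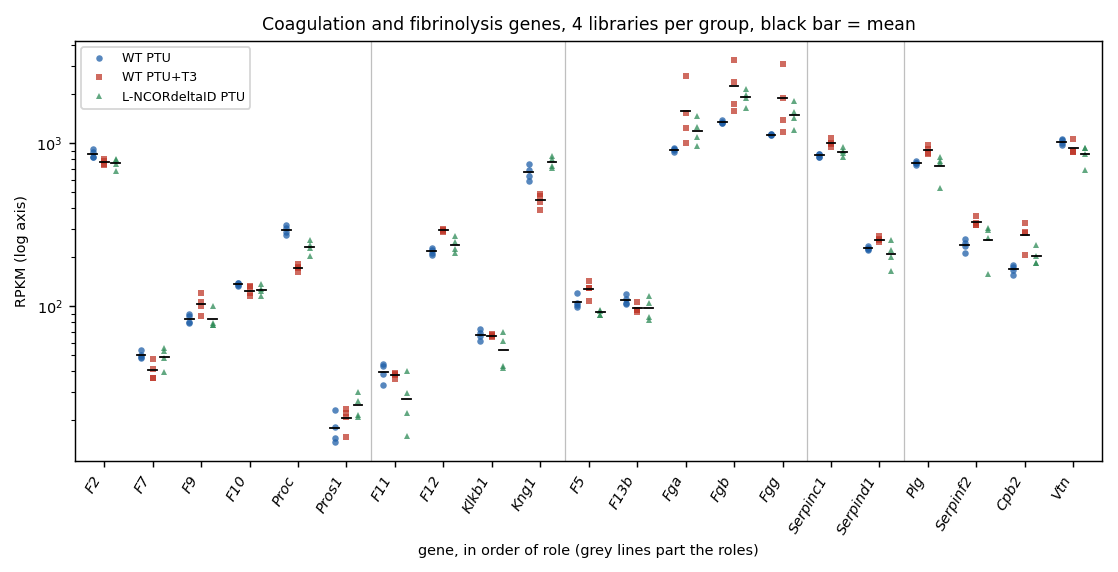
RPKM (vertical axis, logarithmic) of the 21 coagulation and fibrinolysis genes (horizontal axis, in order of role) in each of 4 libraries per group, with black bars for group means. The fibrinogen chains of the hypothyroid WT mice sit almost on one point, while those of the hyperthyroid WT mice spread from 1002 RPKM (Fga) to 3260 RPKM (Fgb).

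In the lectin pathway of complement, no gene of 4 passed the threshold with limma. All 4 had an unadjusted p under 0.05, as did 56.5% of all genes tested, and their adjusted p were between 0.0122 and 0.0266. Mbl2 (mannose-binding lectin C) was the most abundant, at 317, 225, 220 and 269 RPKM in hypothyroid WT mice and at 338, 360, 332 and 377 RPKM in hyperthyroid WT mice (log2 fold change 0.46, adjusted p = 0.0122). The least abundant was Masp1, a protease that associates with the lectins, at 28.7, 33.0, 34.7 and 29.4 RPKM without T3 and 56.9, 47.9, 37.8 and 37.8 RPKM with it (log2 fold change 0.50, adjusted p = 0.0145). The groups of both genes did not overlap. Mbl1 (mannose-binding lectin A) had a log2 fold change of 0.52 and Masp2, the protease that cleaves C4 and C2, one of -0.27. Scaling libraries by the median of gene ratios lowered the log2 fold changes of Mbl1, Mbl2 and Masp1 to 0.29, 0.23 and 0.27. Their adjusted p were then 0.142, 0.218 and 0.201, while Masp2 was called lower (adjusted p = 0.00478).

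Of the genes of the convertases, 3 rose and C3 did not pass the test. C4b encodes C4, which after cleavage joins C2 in the classical and lectin convertase. It was at 106, 127, 127 and 111 RPKM in hypothyroid WT mice and at 235, 292, 210 and 186 RPKM in hyperthyroid WT mice. All hyperthyroid mice lay well above all hypothyroid mice (log2 fold change 0.95, SE 0.14, adjusted p = 0.000546), and the call held in all 17 alternatives. Its near-identical copy C4a was at 17.8 to 42.4 and 24.3 to 43.8 RPKM (log2 fold change 0.24, adjusted p = 0.494), and the split of reads between C4b and C4a is uncertain.

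C2, the protease of that convertase, was the least abundant of this class. It was at 36.3, 35.5, 32.1 and 30.6 RPKM without T3 and at 53.8, 43.3, 41.9 and 51.1 RPKM with T3 (log2 fold change 0.49, SE 0.10, adjusted p = 0.00334). The groups did not overlap, but the call ended without hypothyroid WT replicate 3 or 4 or hyperthyroid WT replicate 4 (adjusted p = 0.0105, 0.0117 and 0.0104) and with all 12 libraries in 1 fit (adjusted p = 0.0188). Cfb (factor B, the protease of the alternative convertase) was at 358, 379, 333 and 325 RPKM and at 564, 612, 484 and 494 RPKM (log2 fold change 0.62, SE 0.10, adjusted p = 0.00121). Every hyperthyroid mouse lay above the hypothyroid mice. C2 and Cfb lie 85 bp apart on chromosome 17 in the GENCODE annotation, and whether reads were counted by strand is not given in the sources used here.

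C3, which all pathways cleave, was the most abundant complement gene. It was at 1687, 1532, 1467 and 1762 RPKM in hypothyroid WT mice and at 1411, 1956, 1221 and 960 RPKM in hyperthyroid WT mice. The hyperthyroid mice spread on both sides of the hypothyroid mice, and replicate 2 was again the highest (log2 fold change -0.26, 95% interval -0.72 to 0.20, adjusted p = 0.309).

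Complement regulators were lower or not called. Cfi encodes factor I, the protease that inactivates C3b and C4b. Its RNA was at 314, 291, 280 and 331 RPKM in hypothyroid WT mice and at 228, 210, 179 and 221 RPKM in hyperthyroid WT mice, with no overlap (log2 fold change -0.54, SE 0.10, adjusted p = 0.00199). Serping1 encodes the C1 inhibitor, which also blocks kallikrein and factor XII, and was the most abundant regulator in hypothyroid WT mice. It was at 363, 370, 325 and 371 RPKM and at 270, 279, 214 and 253 RPKM (log2 fold change -0.50, SE 0.10, adjusted p = 0.00338). The groups of Serping1 did not overlap either, but its call ended without hypothyroid WT replicate 1, 2 or 4 (adjusted p = 0.011, 0.0118 and 0.0122). C4bp (the binding protein through which factor I degrades C4b) was the least abundant regulator in hypothyroid WT mice but the most abundant in hyperthyroid WT mice, at 255, 268, 277 and 246 RPKM without T3 and 305, 303, 308 and 269 RPKM with T3. It was not called (log2 fold change 0.18, adjusted p = 0.0893).

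Among the terminal genes 3 fell and 3 did not pass the test. C6, which joins the growing pore after C5, was the least abundant terminal gene in both WT groups. It was at 63.0, 86.1, 77.2 and 48.1 RPKM in hypothyroid WT mice and at 14.6, 12.6, 16.6 and 22.3 RPKM in hyperthyroid WT mice. The highest hyperthyroid mouse lay far under the lowest hypothyroid mouse (log2 fold change -2.05, SE 0.21, adjusted p = 9.85e-05). Only 1.09% of all genes tested had a lower log2 fold change.

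C8a and C8b encode the α and β chains of C8. C8a was at 184, 201, 186 and 209 RPKM in hypothyroid WT mice and at 51.0, 59.7, 61.9 and 65.7 RPKM in hyperthyroid WT mice, with little spread in either group (log2 fold change -1.71, SE 0.09, adjusted p = 5.21e-06). C8b was at 93.9, 129, 127 and 104 RPKM and at 34.3, 43.4, 66.6 and 80.9 RPKM. Its groups did not overlap, yet the hyperthyroid mice differed more than 2-fold among themselves (log2 fold change -1.08, SE 0.25, adjusted p = 0.00668). The calls of C6 and C8a held in all 17 alternatives, whereas that of C8b held in 8. It ended without any 1 of the 4 hypothyroid WT mice (adjusted p = 0.0108, 0.0201, 0.0186 and 0.0155) and without hyperthyroid WT replicate 1 or 2 (adjusted p = 0.0101 and 0.0181), with log2 fold changes between -1.17 and -0.87 in these fits.

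The third chain of C8 did not follow. C8g (γ chain, a lipocalin bound to C8a) was at 234 to 269 RPKM in hypothyroid and 251 to 299 RPKM in hyperthyroid WT mice (log2 fold change 0.17, adjusted p = 0.139). C8g RNA was therefore 1.12 to 1.44 times C8a RNA in hypothyroid WT mice and 4.06 to 5.86 times in hyperthyroid WT mice. C9, the protein that lines the pore and the most abundant terminal gene, was at 241, 370, 425 and 305 RPKM without T3 and 387, 417, 351 and 564 RPKM with T3, with groups that overlapped (log2 fold change 0.37, adjusted p = 0.151). Hc, which encodes C5, ranged from 103 to 133 RPKM and from 70.1 to 156 RPKM (log2 fold change -0.10, 95% interval -0.61 to 0.41).

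The promoters of the 3 terminal genes that fell are shown for the same 4 motifs and in the same way (RefSeq, GRCm38.p6, 250 bases before the start).
C6, chr15:4726960-4727209, plus strand: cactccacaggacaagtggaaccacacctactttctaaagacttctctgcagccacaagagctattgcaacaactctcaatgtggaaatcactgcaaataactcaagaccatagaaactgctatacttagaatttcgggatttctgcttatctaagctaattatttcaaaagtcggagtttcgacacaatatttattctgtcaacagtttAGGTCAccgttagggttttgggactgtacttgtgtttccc
C8a, chr4:104876399-104876648, minus strand: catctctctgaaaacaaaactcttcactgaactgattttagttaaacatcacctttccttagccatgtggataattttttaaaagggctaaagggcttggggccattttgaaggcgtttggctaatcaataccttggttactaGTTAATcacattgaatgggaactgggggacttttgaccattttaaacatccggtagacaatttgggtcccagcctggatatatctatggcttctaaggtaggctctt
C8b, chr4:104766067-104766316, plus strand: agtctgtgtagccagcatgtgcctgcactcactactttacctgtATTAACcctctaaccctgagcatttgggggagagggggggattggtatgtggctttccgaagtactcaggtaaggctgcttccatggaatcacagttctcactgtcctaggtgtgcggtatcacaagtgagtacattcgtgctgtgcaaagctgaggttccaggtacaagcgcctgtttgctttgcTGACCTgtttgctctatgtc
C8a and C8b each held an HNF1 half-site, 107 and 206 bases before the start, and C6 and C8b each held an AGGTCA half-site, 40 and 20 bases before it. Among the 11 complement genes with an entry, 4 held GTTAAT, 2 held TTGCNNAA, 1 held CTGGGAA and 4 held AGGTCA. C8a and C8b lie side by side on chromosome 4, 11130 bp apart and on opposite strands, while C6 lies on chromosome 15. No entry was found for Serping1, C2, Cfi, Proc, Kng1, Plg, Masp1, Cfb and C4b.

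**Figure D4:**
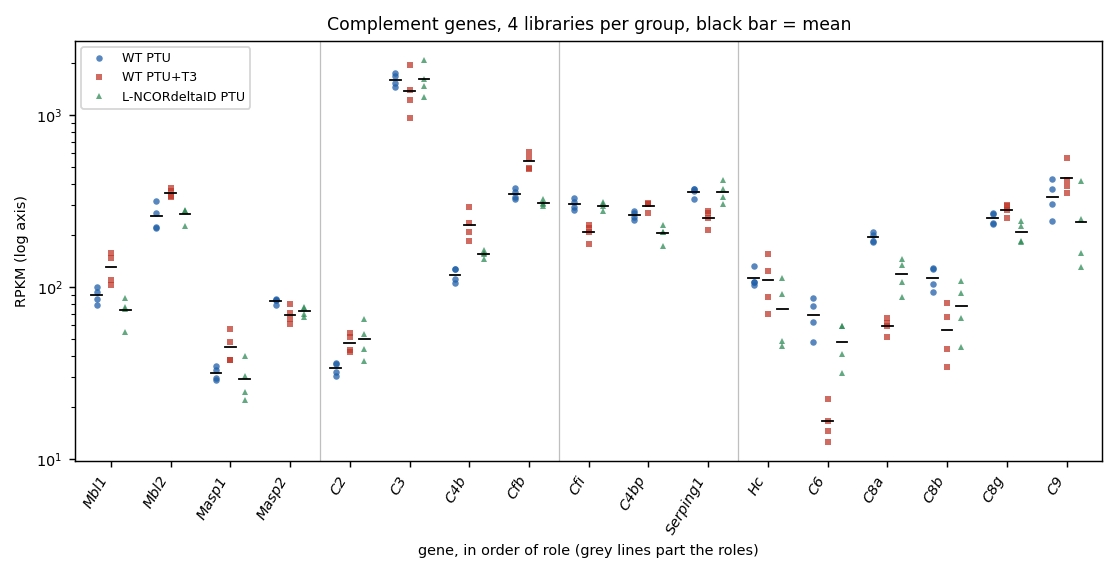
RPKM (vertical axis, logarithmic) of the 17 complement genes (horizontal axis, in order of role) in each of 4 libraries per group, with black bars for group means. C6 and C8a of the hyperthyroid WT mice (12.6 to 22.3 and 51.0 to 65.7 RPKM) lie wholly under both other groups.

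Other genes of these pathways were counted from lists that hold none of the 38. Of 21 other coagulation genes tested, 4 rose and 1 fell with T3. F3 (tissue factor, the cellular trigger of clotting) rose 2.87-fold from 0.819 to 2.18 RPKM to 2.59 to 5.37 RPKM, and Ggcx, the carboxylase that activates vitamin K-dependent factors, rose by a log2 fold change of 0.68 (adjusted p = 0.00253 and 0.000923). Hrg, which encodes the abundant plasma protein histidine-rich glycoprotein, fell 1.51-fold (adjusted p = 0.00135). With libraries scaled by the median of gene ratios, 2 of these genes rose (F3 and Procr) and 2 fell (Hrg and Hpn). Of 24 other complement genes tested, 11 rose and 4 fell, or 9 and 4 with that scaling. The 3 chains of C1q rose 2.59- to 3.07-fold and Vsig4, a complement receptor of macrophages, rose 2.48-fold, and these 4 genes also stand in the macrophage list, all 9 tested members of which rose. C1ra and Cpn1 fell (log2 fold change -0.54 and -0.55), as did Clu (clusterin, an inhibitor of the pore, log2 fold change -0.80) and C1rb (log2 fold change -0.72).

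The second comparison asked which of the genes differ between hypothyroid L-NCORdeltaID and hypothyroid WT mice. The paper proposes that the deleted domains may also bring NCOR1 to regulators other than TR. None of the 38 was called in L-NCORdeltaID against WT mice with limma at an adjusted p under 0.01, where 1.27% of the 13790 genes tested were called in either direction. At an unadjusted p under 0.05 there were 8 of 21 coagulation and 8 of 17 complement genes, while 20.5% of all genes tested had such a p. No other count tool was run, since the values are RPKM. The groups of 4 did not overlap for 8 coagulation and 5 complement genes, against 13.1% of all genes tested. The median log2 fold change was -0.05 over the coagulation genes, -0.20 over the complement genes and 0.03 over all genes tested. A difference that misses the threshold with 4 mice per group is not shown to be absent.

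The genes with the smallest adjusted p were C8a and C4b. C8a was at 88.1, 108, 134 and 146 RPKM in L-NCORdeltaID mice, all under the 184 to 209 RPKM of hypothyroid WT mice (log2 fold change -0.74, SE 0.15, adjusted p = 0.0282). C4b was at 145, 155, 165 and 157 RPKM, all above the 106 to 127 RPKM of hypothyroid WT mice (log2 fold change 0.41, SE 0.08, adjusted p = 0.0303). Beside it, the copy C4a was called lower, at 7.64 to 9.02 RPKM against 17.8 to 42.4 RPKM (log2 fold change -1.70, adjusted p = 0.00719), and the assignment of reads between these copies is uncertain in this comparison too. The part of age and of the mixed strain background in these values was not tested.

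All 6 terminal complement genes had negative log2 fold changes in L-NCORdeltaID mice, with a median of -0.61, and none was called. Over all genes tested, 55.8% had a log2 fold change above 0. C6 was at 40.8, 31.7, 59.1 and 59.1 RPKM and C8b at 44.5, 66.1, 92.6 and 108 RPKM, and both groups overlapped those of hypothyroid WT mice (log2 fold change -0.54 and -0.61, adjusted p = 0.244 and 0.218). C9 was at 131, 157, 250 and 412 RPKM (log2 fold change -0.61, 95% interval -1.38 to 0.16), and Hc at 113, 91.5, 45.7 and 48.3 RPKM (log2 fold change -0.69, 95% interval -1.33 to -0.06). L-NCORdeltaID replicates 1 and 2 were the lowest for C6, C8a, C8b, C8g and C9, and replicates 3 and 4 for Hc. Most of these genes thus shared their lowest mice, and the spread within the group was wide. The part of these mice in the negative values was not tested. C8g RNA was 1.56 to 2.11 times C8a RNA in these mice.

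Fibrinogen was higher in every L-NCORdeltaID mouse than in every hypothyroid WT mouse, without passing the test. Fgb was at 1650, 1908, 1977 and 2148 RPKM (log2 fold change 0.50, SE 0.12, adjusted p = 0.0537), and Fga and Fgg had log2 fold changes of 0.37 and 0.39 (adjusted p = 0.177 and 0.154). Summed fibrinogen was 3819, 4428, 4813 and 5436 RPKM. The acute phase list summed to 3790 to 6685 RPKM in these mice, highest in replicate 2, while fibrinogen was highest in replicate 4, and 1 gene of that list (Fgl1) was called higher. Macrophage markers summed to 88.0 to 236 RPKM, also highest in replicate 2, and none of the 9 was called. Hepatocyte markers summed to 37653 to 42847 RPKM, under the range of hypothyroid WT mice, with 3 of the 6 at negative log2 fold changes (Alb -0.48, Apoa2 -0.42 and Ttr -0.21), 3 at positive ones (Ass1 0.29, Tat 0.18 and Apoa1 0.03) and a list median of -0.09. Stellate cell markers summed to 62.2 to 107 RPKM. None of the hepatocyte or stellate cell markers was called. The part of these shifts in the differences of this comparison was not tested.

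Side by side, C8a had log2 fold changes of -1.71 with T3 and -0.74 in L-NCORdeltaID mice, C4b of 0.95 and 0.41, and Proc of -0.77 and -0.35 (adjusted p = 0.0675 in L-NCORdeltaID mice, 203 to 256 RPKM). C6 had -2.05 and -0.54, C8b -1.08 and -0.61, C2 0.49 and 0.54, and Cpb2 0.69 and 0.26. For C2 and Cpb2, every L-NCORdeltaID mouse lay above every hypothyroid WT mouse, without a call (adjusted p = 0.102 and 0.174). F12 had 0.43 and 0.13, and Serpinf2 0.46 and 0.05. Kng1 had -0.57 and 0.21, Cfi -0.54 and -0.03, Serping1 -0.50 and -0.01, and Cfb 0.62 and -0.18. Since both comparisons share their controls, these pairs are not independent, and the difference between them was not tested. Of the other genes of the pathways, 0 of 21 coagulation genes were called in L-NCORdeltaID mice, with 3 of those named above (F3, Ggcx and Hrg) at adjusted p of 0.766, 0.583 and 0.775 and 7 of the 21 at an unadjusted p under 0.05. Of 24 other complement genes, Fcna (ficolin A, a recognition protein of the lectin pathway) was called higher, at 13.5 to 17.8 RPKM against 8.26 to 10.005 RPKM (log2 fold change 0.75, adjusted p = 0.00472), and C4a lower. C1rb was at 0.045 to 1.19 RPKM against 3.35 to 4.43 RPKM without being called (adjusted p = 0.0175). The part of age and strain background was not tested for these values either.

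The chromatin of these genes was examined with the 37200 regions in which H3K9Ac or H3K27Ac had been found in livers of hypothyroid or hyperthyroid WT mice. The deposited list gives positions (mm9) but no acetylation level, so the list alone allowed no comparison between conditions. The acetylation counts per region published by the authors and the ChIP-seq samples were not used here. The 5′ end of the gene in GENCODE M1, which is on the same build, lay inside such a region for 37 of 38 genes, against 86.1% of the 12215 tested genes with a position. Klkb1 was the exception, with its 5′ end 1392 bp from the nearest region, and an annotated transcript start of Klkb1 did lie inside one.

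Regions at these genes were long beside those at all tested genes, and a set of genes with like RNA levels was not compared. A single region of 58385 bp (chr3:82802423-82860807) covered all 3 fibrinogen genes, so that the 37 genes had 35 regions. With each region counted once, all 35 were longer than the median of the 9261 regions at tested genes (3827 bp), and 27 were longer than the upper quartile (6765 bp). The median length was 11834.5 bp over the 18 coagulation regions and 9590 bp over the 17 complement regions. The regions at C3 (37679 bp, chr17:57340615-57378293) and Masp1 (29352 bp, chr16:23494966-23524317) came next. Among the terminal genes, C8g had the shortest region (5098 bp), C9 and Hc had regions of 12633 and 28864 bp, and the genes that fell with T3 had regions of 6837 bp at C6 (chr15:4674368-4681204), 9590 bp at C8a (chr4:104540822-104550411) and 7056 bp at C8b (chr4:104435178-104442233). At C6 the region reached 4029 bp into a gene of 88282 bp and was the only one over it, while 3 regions lay over C8a and 3 over C8b.

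**Figure D5:**
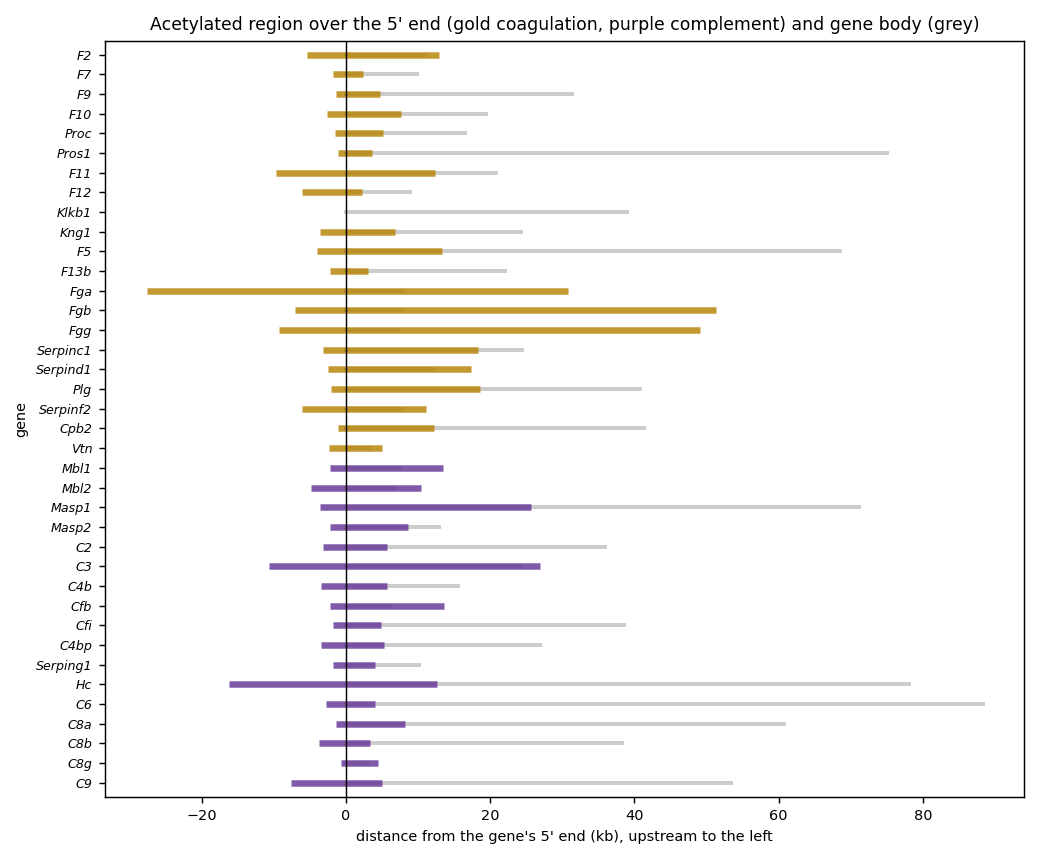
Extent of the acetylated region over the 5′ end of each of the 38 genes (vertical axis), in kb from that end (horizontal axis, upstream to the left), in gold for coagulation and purple for complement, with the gene body in grey. The 3 fibrinogen genes share 1 region of 58385 bp, and Klkb1 has none over its 5′ end.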

How the data were processed

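Liver RNA-seq of 12 mice (3 groups of 4, described as independent biological replicates) and a list of H3 acetylated regions were used, and the ChIP-seq samples themselves were not analysed here. The authors aligned reads to mm9 with STAR, kept uniquely aligned reads and counted them over RefSeq transcripts with HOMER. The deposited RNA table holds the authors' RPKM. Versions and strand settings are not given in the sources used here. Absolute depth was not used, and steps between low RPKM gave relative depths of 0.681 to 1.36. Each library had runs on 2 instrument models, which does not separate the groups. Of 31370 transcripts, 1 had no gene name and was dropped (0.000785% or less of RPKM in any library). The table had 0 unused columns of sample values, and 0 pairs of libraries were identical.

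Genes were tested if 4 or more of the 8 libraries in a comparison reached 0.1 RPKM. The test was limma 3.58.1 (R 4.3.3) with a variance trend, on log2(RPKM + 0.1), with only the 2 groups compared in a fit. P-values are two-sided and Benjamini-Hochberg adjusted over all genes tested, and calls were made at an adjusted p under 0.01. A fold change on this scale understates the change of genes with low RPKM. The procedure was tested on simulated data. Full values are given for the called genes (at most the 12 largest per comparison) and for the most and least abundant gene of each role in hypothyroid WT mice. The 38 genes, the lists and the motifs were chosen with earlier results of these data known.

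The deposited region list holds only chromosome, start and end, made by the authors with HOMER from WT H3K27Ac and H3K9Ac libraries. Its ends lay within the chromosome lengths of NCBIM37 for 37200 of 37200 regions, and starts were read as in BED. Promoters are from RefSeq (GRCm38.p6), and no coordinates were converted between builds. Python 3.11.15, numpy 2.4.6, pandas 2.3.3 and matplotlib 3.10.9 were used. Alternatives were pseudocounts of 1 and 0.01, no filter, a filter on the mean (1 RPKM), a joint fit of all 12 libraries, a replicate block, a fit with no trend in the variance, libraries scaled by median gene ratios, a threshold of 0.05, the most abundant transcript of a gene, and each library left out in turn. For regions they were a distance of 1 kb, all named genes and, added after the data were seen, any annotated transcript start.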

Additional observations from a re-analysis of the deposited data

Results flagged for a closer look

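In 5 of 114 sets of 4 libraries (38 genes in 3 groups), 1 library lay far from the other 3 by Dixon's test at its 95% critical value, and chance alone gives about 1 in 20. F9 (factor IX) was at 101 RPKM in L-NCORdeltaID replicate 4 and at 76.8 to 79.5 RPKM in the other 3 L-NCORdeltaID mice. Mbl2 was at 226 RPKM in the same mouse and at 276 to 280 RPKM in the others of its group. Vtn was at 1060 RPKM in hyperthyroid WT replicate 2 and at 887 to 903 RPKM in the others. C4bp was at 269 RPKM in hyperthyroid WT replicate 4 and at 303 to 308 RPKM in the others. Hc was at 133 RPKM in hypothyroid WT replicate 4 and at 103 to 107 RPKM in the others. None of these 5 genes was called in either comparison.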

How the results depend on the processing

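No call of the 38 genes changed direction under any alternative. The calls of Proc, C4b, Cfi, C6 and C8a held in all 17 alternative fits of the T3 comparison, and both pseudocounts, the filter on the mean and the transcript choice changed no call. Scaling by the median of gene ratios gave 0 coagulation genes higher and 5 lower, and 1 complement gene higher. An adjusted p under 0.05 gave 8 coagulation and 6 complement genes higher with T3, and 3 coagulation and 6 complement genes lower. That threshold gave 6880 of the 13941 genes tested in either direction. In L-NCORdeltaID mice it gave 2 complement genes (C4b and C8a) and 601 of all genes. With each library left out in turn, 1 to 3 coagulation and 3 to 5 complement genes were lower with T3. The lowest counts came without hypothyroid WT replicate 4 for coagulation and without replicate 1, 2 or 4 of that group for complement, where fewer samples were tested. Calls were gained by Mbl2 without hypothyroid WT replicate 1 (adjusted p = 0.00343), by F7, Mbl1 and Masp2 without hyperthyroid WT replicate 1 (adjusted p = 0.0036, 0.00707 and 0.00637), and by Mbl2 with all 12 libraries in 1 fit (adjusted p = 0.00812). Without a filter and without a variance trend, C8b was not called (adjusted p = 0.0113 and 0.0112). The cause was not tested.

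In L-NCORdeltaID mice 0 of the 38 genes were called with each library left out in turn, while the count over all genes moved from 175 to between 67 and 187. It was 89, 67, 68 and 67 without hypothyroid WT replicates 1 to 4, and 97 and 74 without L-NCORdeltaID replicates 1 and 3. Over all named genes, 56.17% of starts lay inside an acetylated region.

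Same-numbered mice did not pair, with correlations of their deviations from the group means of -0.067 to 0.08 for T3 and -0.145 to 0.175 for L-NCORdeltaID. Hypothyroid WT replicates 1 and 3 correlated best with the hyperthyroid WT mouse of their own number. A replicate block gave 3606 calls over all genes with T3 and 45 in L-NCORdeltaID mice. Under the block, Cpb2 lost its call (adjusted p = 0.012) and Mbl1 gained one (adjusted p = 0.00679).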
